A study of Mus musculus with 24 samples.

Results

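The vacuolar proton pump and the cathepsins were followed through 38 genes of the 18820 measured, in cultured primary hepatocytes and whole livers of mice whose hepatocytes lacked NEMO, KEAP1 or both proteins. Genes were chosen by symbol from probe sets annotated with a single gene: symbols that begin with Atp6v0 or Atp6v1, the accessory subunits Atp6ap1 and Atp6ap2, and Cts followed by 1 letter. The symbol rule itself used no difference between groups, but the members were chosen with earlier results of these data known. The rule gave 7 subunits of the membrane sector V0, 13 subunits of the cytosolic sector V1, 2 accessory subunits and 16 cathepsins. RefSeq (GRCm38.p6) lists 43 protein-coding mouse genes with such symbols, and 5 of them were not analysed here. Of those 5, Atp6v0a4, Ctsb and Ctsm share their probe sets with other genes, and Atp6v0c and Atp6v1fnb had no probe set of their own in the annotation used.

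RNA of 24 samples was hybridised to 1-colour Affymetrix mouse arrays, with 3 arrays in each of 8 groups. The genotypes were NEMOΔhepa/KEAP1Δhepa (double knockout), NEMOΔhepa (NEMO knockout), KEAP1Δhepa (KEAP1 knockout) and NEMOf/f mice without the knockout (control), each as primary hepatocytes and as liver. All mice were labelled as 8-week-old males. The floxed genes were removed with an Alfp-Cre transgene, whose albumin and alpha-fetoprotein regulatory sequences drive Cre in the hepatocyte lineage. The labels do not say that the KEAP1 knockout carries the floxed NEMO gene, nor that controls carry a floxed Keap1 gene. Hepatocytes were freed with collagenase, plated in medium with serum and kept until the next day, so their differences from liver include isolation and culture. No label states that the 3 samples of a group came from separate mice, so p-values measure the spread between samples, which may be technical.

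The proton pump moves protons into lysosomes and other compartments at the expense of ATP. Its V1 sector hydrolyses ATP in the cytosol, and its V0 sector carries the protons across the membrane. Cathepsins are the proteases that work in the acid interior of the lysosome, and most need that acidity to mature. In liver they degrade proteins delivered by autophagy and endocytosis, in hepatocytes as well as in the resident macrophages. Ikbkg encodes NEMO, a non-catalytic part of the kinase that switches on NF-kB. KEAP1 holds down NRF2, the transcription factor of the antioxidant response. Many lysosomal genes carry the sequence CACGTG, which TFEB and its relatives recognise.

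Values are log2 expression, where a step of 1 is a doubling, and they are given per array in the order of the replicate numbers. A gene is called changed at an adjusted p under 0.05, by limma with Benjamini-Hochberg adjustment over all 18820 genes. Levels of different genes are not set against each other, because probe sets differ in brightness.

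Results are given with and without 4 of the 24 arrays, which did not match their labels or lay far from their group. They are called the arrays in doubt. Leaving them out left 2 arrays in the control and in the double knockout group of each tissue. Liver control 3 had a high level of the NRF2 target Nqo1, 9.17, while liver controls 1 and 2 had 4.71 and 5.37. Liver double knockout 3 had the fat cell gene Adipoq at 7.17, against at most 2.76 on all other arrays. Hepatocyte double knockout 3 and hepatocyte control 1 had the female transcript Xist at 9.76 and 9.65, while the other 22 arrays lay between 2.00 and 2.98. Ikbkg lay between 6.01 and 6.60 on the 12 arrays labelled as lacking NEMO and between 6.4 and 7.20 on the other 12, and Keap1 between 5.38 and 5.93 on those lacking KEAP1 and between 5.81 and 6.62 on the rest. Both ranges overlap, so these genes check the labels only in part. For Ikbkg the overlap came from liver control 3 alone, at 6.4. All other arrays not labelled as lacking NEMO lay at 6.63 or above. Hepatocyte markers averaged between 12.16 and 12.56 on every array of either tissue. The low Xist values serve as a guide to the array background.

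Between the highest and the lowest of the 8 group means, 26 of 38 genes (68.4%) spanned under 0.5, where 58.7% of all genes did. Spans over 1 were found for 3 members, Atp6v0d2 with 2.99, Ctss with 2.73 and Ctsk with 1.64, which is 7.89% of members, where 11.9% of all genes spanned as much. Without the 4 arrays in doubt 24 members (63.2%) and 54.4% of all genes spanned under 0.5, and the median span was 0.44 over members and 0.48 over all genes. The smallest span was that of Ctsh, an aminopeptidase among the cathepsins, at 0.12. Means over all arrays were under 2.98, the upper edge of the background guide, for 6 genes: Atp6v1c2, Atp6v1g3, Ctsg, Ctsj, Ctsq and Ctsr. Ctsj, Ctsq and Ctsr are known as placental cathepsins of rodents.

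**Figure D1:**
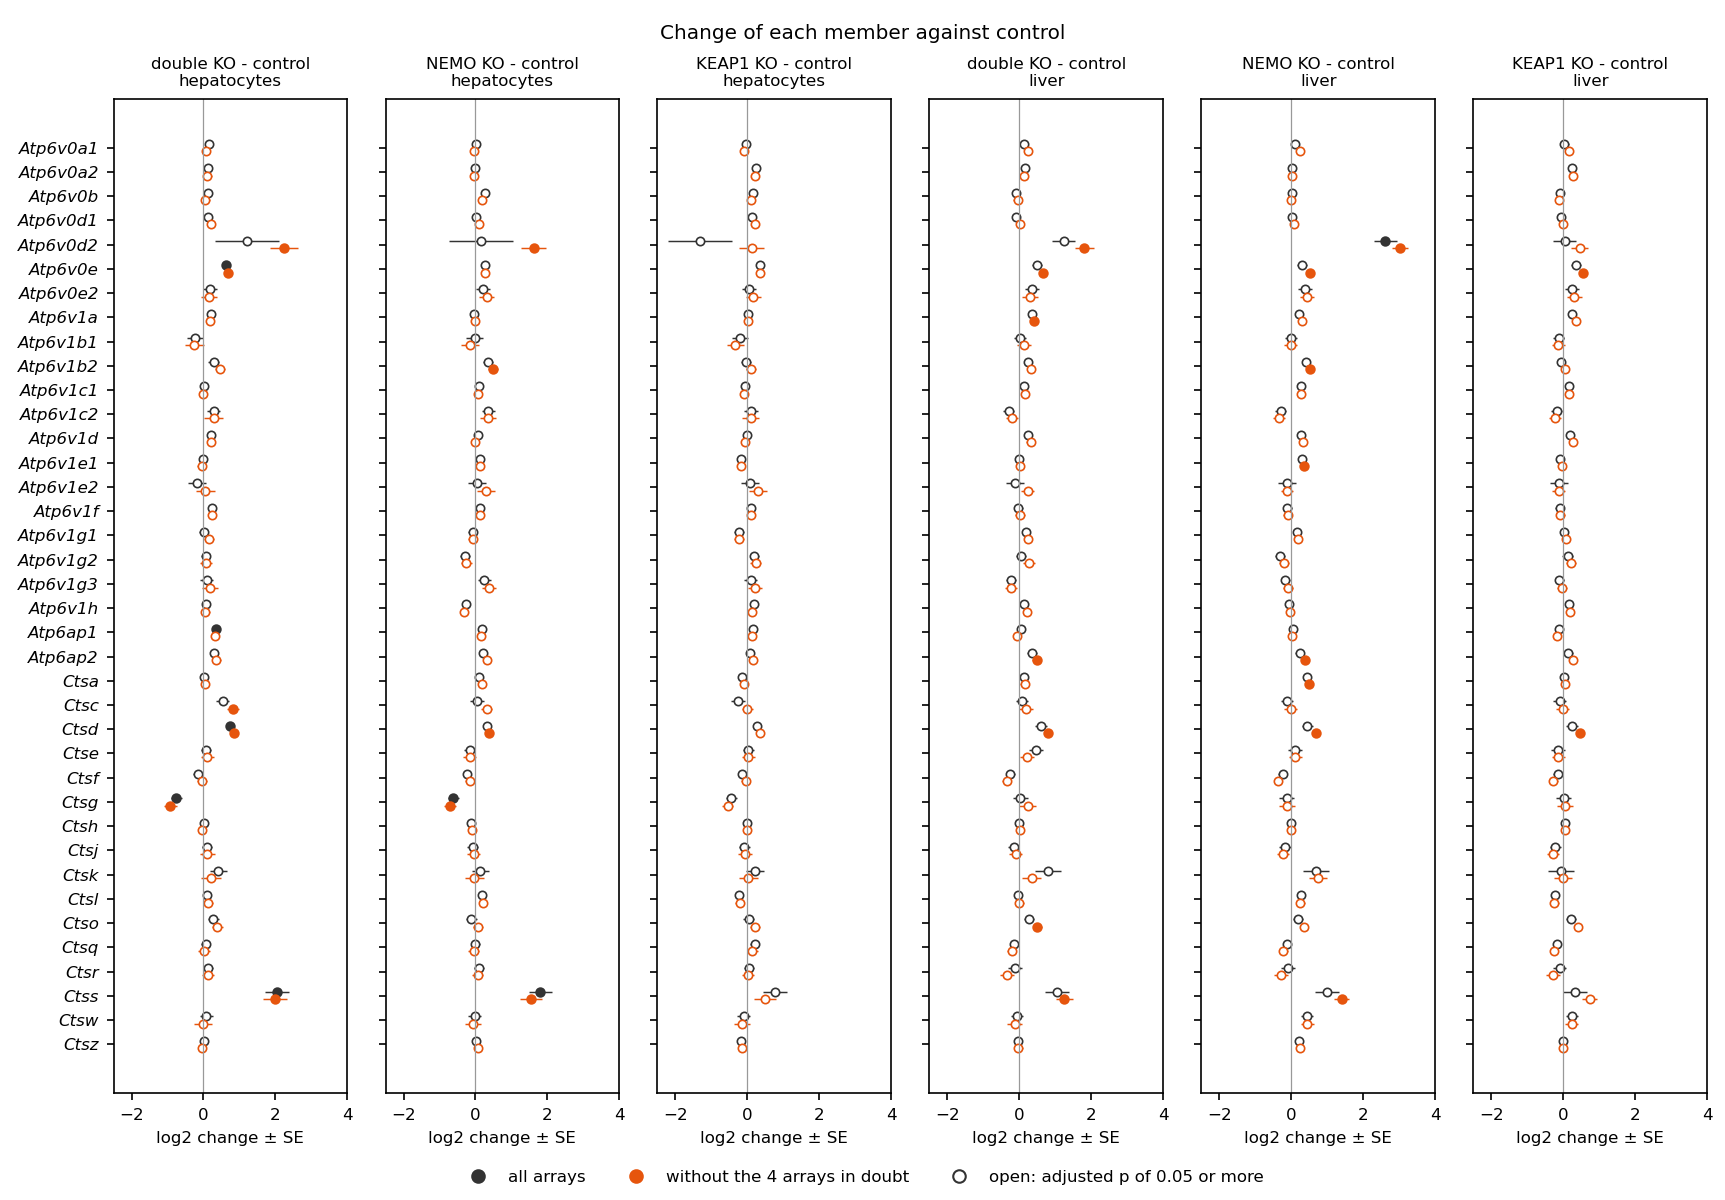
The log2 change ± SE of each of the 38 genes against control is drawn in 6 panels (double, NEMO and KEAP1 knockout in hepatocytes, then in liver), with all arrays in black and without the 4 arrays in doubt in orange. Filled points have an adjusted p under 0.05. Most genes lie close to 0, while Atp6v0d2, Ctss and Ctsd lie to the right in the double and NEMO knockouts once the 4 arrays are left out.

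Among the subunits of V0, Atp6v0d2 varied most. It encodes the d2 form of the subunit that links the proton channel to the rotor, a form best known from osteoclasts and macrophages. In liver Atp6v0d2 was at 5.40, 5.43 and 4.98 in double knockouts, at 6.77, 6.55 and 6.60 in NEMO knockouts, at 4.52, 4.16 and 3.53 in KEAP1 knockouts, and at 3.76, 3.46 and 4.86 in controls. The 3 NEMO knockout livers were the highest of the 12 and overlapped no other group, and the double knockouts lay between them and the controls. The gene rose by 2.61 ± 0.32 in NEMO knockout against control liver, a 6.11-fold change (adjusted p = 0.00519), and by 3.03 ± 0.23 without the arrays in doubt (adjusted p = 3.49e-05). It was the single member called of 38 in that comparison, where 1.33% of all genes were called. In double knockout against NEMO knockout liver the difference was -1.37 ± 0.32 and missed the threshold (adjusted p = 0.0734). It passed as a fall of 1.22 on the log2 scale without the arrays in doubt (adjusted p = 0.0129). Double knockout against control liver differed by 1.24 ± 0.32 (adjusted p = 0.134) and by 1.81 ± 0.26 without those arrays (adjusted p = 0.00139), and leaving out liver control 3 alone gave 1.66 (adjusted p = 0.00212). KEAP1 knockout against control liver gave 0.04 ± 0.32 (adjusted p = 0.983).

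In hepatocytes Atp6v0d2 was at 5.12, 6.4 and 7.04 in double knockouts, at 5.20, 4.78 and 5.45 in NEMO knockouts, at 3.8, 3.16 and 4.0 in KEAP1 knockouts, and at 7.89, 3.76 and 3.30 in controls. A single control, the array with the high Xist value, was the highest of all 24 arrays for this gene. With it the groups overlapped and no comparison in hepatocytes was called. NEMO knockout against control gave 0.16 ± 0.89 (adjusted p = 0.949), while the remaining arrays, with those in doubt left out, gave a rise of 1.62 ± 0.35 (adjusted p = 0.019). The double knockout differed from control by 1.2 ± 0.89 (adjusted p = 0.482), and by 2.23 ± 0.39 without them (adjusted p = 0.00301). Leaving out hepatocyte control 1 alone gave 2.66 for the double knockout (adjusted p = 0.00227) and 1.62 for the NEMO knockout (adjusted p = 0.0575). Against the KEAP1 knockout it differed by 2.53 ± 0.89 (adjusted p = 0.183), and by 2.10 ± 0.35 without them (adjusted p = 0.00707).

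The 2 tissues gave Atp6v0d2 differently ordered means. In liver the double knockout was lower than the NEMO knockout, while in hepatocytes its mean was 6.19 ± 0.98 against 5.14 ± 0.34 in NEMO knockouts (SD, n = 3 each), a difference of 1.04 ± 0.89 (adjusted p = 0.62). The difference between these 2 changes was -2.41 ± 1.05 (adjusted p = 0.981), and it was -1.84 ± 0.47 without the arrays in doubt (adjusted p = 0.519). This comparison was added after its values were seen, and it passed the threshold in neither case. The difference of the NEMO effect in liver from that in hepatocytes was 2.45 ± 1.05 (adjusted p = 0.474), while leaving out the arrays in doubt gave 1.41 ± 0.47 (adjusted p = 0.221). In liver, the departure of the double knockout from the sum of both single changes (the interaction) was -1.41 ± 0.46 (adjusted p = 0.748) and -1.69 ± 0.33 without them (adjusted p = 0.0533).

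**Figure D2:**
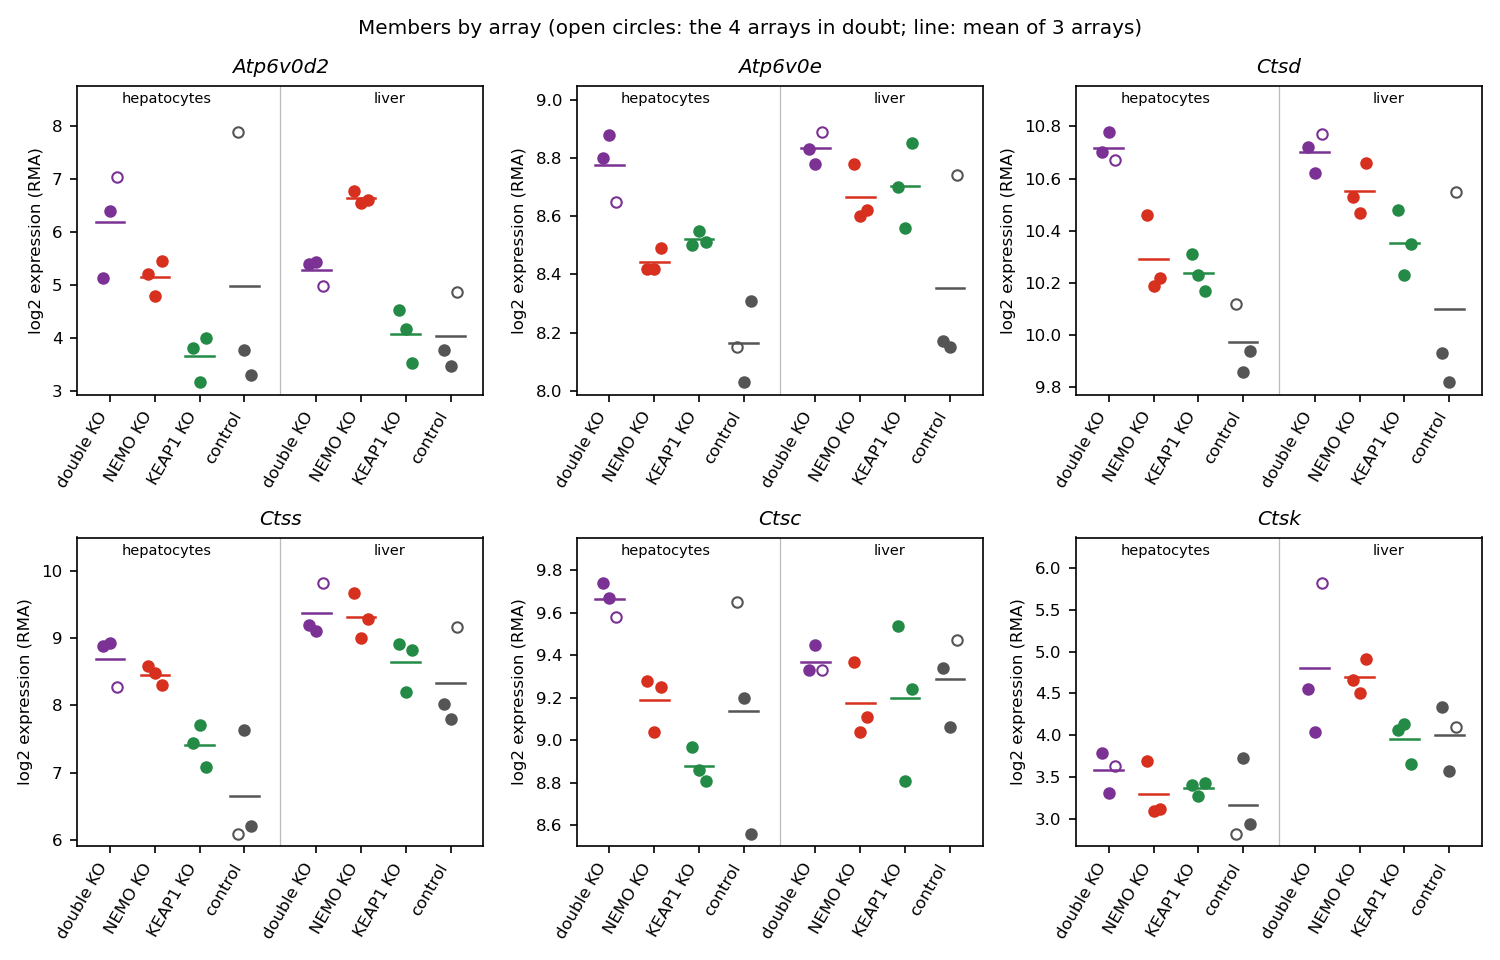
Log2 expression of Atp6v0d2, Atp6v0e, Ctsd, Ctss, Ctsc and Ctsk is plotted per array, with hepatocytes on the left and liver on the right of each panel. Lines are means of 3 arrays and open circles are the 4 arrays in doubt. Atp6v0d2 sits between 6.55 and 6.77 in NEMO knockout livers, and Ctsd has its highest means in the double knockouts of both tissues.

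Atp6v0e, a small membrane subunit of V0, rose in double knockout hepatocytes. It was at 8.80, 8.88 and 8.65 in double knockout hepatocytes, at 8.42, 8.42 and 8.49 in NEMO knockouts, at 8.5, 8.55 and 8.51 in KEAP1 knockouts, and at 8.15, 8.03 and 8.31 in controls. All 3 mutant groups lay above every control. The double knockout rose by 0.62 ± 0.09 against control (1.53-fold, adjusted p = 0.000548), while the NEMO knockout at 0.28 ± 0.09 (adjusted p = 0.0819) and the KEAP1 knockout at 0.36 ± 0.09 (adjusted p = 0.0602) missed the threshold. In liver Atp6v0e was at 8.83, 8.78 and 8.89 in double knockouts, at 8.78, 8.60 and 8.62 in NEMO knockouts, at 8.70, 8.56 and 8.85 in KEAP1 knockouts, and at 8.17, 8.15 and 8.74 in controls. Liver control 3, the array with high Nqo1, lay within the range of the mutants. With the arrays in doubt left out, Atp6v0e rose in all 3 mutant livers, by 0.65 ± 0.11 in double (adjusted p = 0.00375), 0.51 ± 0.10 in NEMO (adjusted p = 0.00676) and 0.55 ± 0.10 in KEAP1 knockouts (adjusted p = 0.00923). With all arrays none of these 3 passed, at adjusted p = 0.138, 0.275 and 0.633. Double against NEMO knockout hepatocytes differed by 0.34 ± 0.09 (adjusted p = 0.0581), and passed at 0.40 ± 0.10 without the arrays in doubt (adjusted p = 0.0401).

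The remaining 5 subunits of V0 were called in no comparison, with or without the arrays in doubt. Atp6v0d1, the widely expressed d form, had group means within 0.14 of each other. Its hepatocyte values were 8.41, 8.52 and 8.44 in double knockouts and 8.49, 8.19 and 8.30 in controls, so the groups overlapped. Atp6v0a1 and Atp6v0a2, forms of the large subunit a that contacts the proton channel, spanned 0.19 and 0.26. Atp6v0b, a proteolipid of the channel ring, also spanned 0.26. Atp6v0e2, the second e form, spanned 0.38.

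With all arrays limma called 0 of the 13 subunits of the V1 sector in any of the 16 comparisons, where 0.0% to 9.72% of all genes were called. At most 4 of 13 had an unadjusted p under 0.05, for example in NEMO knockout against control liver, where 18% of all genes did. Atp6v1b2 is the widely expressed form of the subunit that shares the catalytic core with A, and its means were highest in the NEMO knockouts of both tissues, as were those of Atp6v1e1 and Atp6v1c1. In liver Atp6v1b2 was at 8.51, 8.48 and 8.60 in double knockouts, at 8.67, 8.74 and 8.69 in NEMO knockouts, at 8.29, 8.07 and 8.30 in KEAP1 knockouts, and at 8.21, 8.14 and 8.5 in controls. The NEMO knockout livers lay above all other livers. The difference from control was 0.42 ± 0.10 (adjusted p = 0.0733), and leaving out the arrays in doubt gave a rise of 0.52 ± 0.09 (adjusted p = 0.00357). In NEMO knockout hepatocytes the difference was 0.34 ± 0.14 (adjusted p = 0.179), and a rise of 0.49 ± 0.13 without those arrays (adjusted p = 0.0464).

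Atp6v1e1, a subunit of the peripheral stalk, rose by 0.36 ± 0.10 in NEMO knockout liver without the arrays in doubt (adjusted p = 0.0398). With all arrays it was at 8.93, 8.72 and 8.73 in NEMO knockout livers, against 8.42, 8.45 and 8.61 in controls, a difference of 0.30 ± 0.10 that missed the threshold (adjusted p = 0.16). Atp6v1a, the catalytic subunit, rose by 0.41 ± 0.11 in double knockout liver without the arrays in doubt (adjusted p = 0.0446). Its values there were 7.94, 8.12 and 8.10 in double knockouts, against 7.72, 7.51 and 7.92 in controls. The 3 double knockouts lay just above the highest control, the array with high Nqo1, and the difference over all arrays was 0.34 ± 0.11 (adjusted p = 0.146). Atp6v1h, the subunit that couples ATP hydrolysis to pumping, had its lowest mean in NEMO knockout hepatocytes, at 6.81, 6.87 and 6.65 against 6.94, 7.08 and 7.09 in controls, and was not called. The forms known mainly from kidney and other specialised epithelia were dim: Atp6v1b1 averaged 3.05, and Atp6v1c2 and Atp6v1g3 lay at background. The other V1 subunits, Atp6v1c1, Atp6v1d, Atp6v1e2, Atp6v1f, Atp6v1g1 and Atp6v1g2, were called in no comparison, and their group means spanned 0.23 to 0.66.

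Of the accessory subunits, Atp6ap1 was called in double knockout hepatocytes. It was at 8.38, 8.38 and 8.40 in double knockout hepatocytes, at 8.21, 8.21 and 8.21 in NEMO knockouts, at 8.28, 8.24 and 8.06 in KEAP1 knockouts, and at 8.03, 8.14 and 7.96 in controls. The double knockout arrays lay above all other hepatocyte arrays. The rise of 0.34 ± 0.08 (adjusted p = 0.0187) did not pass without the arrays in doubt, at 0.32 ± 0.11 (adjusted p = 0.0882). Nor did it pass without double knockout 1 or 2 or without control 1 or 3, at adjusted p = 0.0512, 0.0642, 0.0501 and 0.0674. With arrays centred on their medians the difference was 0.14 (adjusted p = 0.209). Atp6ap2, also known as the prorenin receptor, was at 7.02, 7.27 and 7.17 in double knockout livers, at 7.04, 6.98 and 7.09 in NEMO knockout livers, and at 6.71, 6.62 and 7.09 in control livers. The highest control was again liver control 3, and without the arrays in doubt Atp6ap2 rose by 0.48 ± 0.12 in double (adjusted p = 0.0297) and by 0.37 ± 0.11 in NEMO knockouts (adjusted p = 0.0484). With all arrays the differences were 0.35 ± 0.13 (adjusted p = 0.168) and 0.23 ± 0.13 (adjusted p = 0.36).

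Among the cathepsins, Ctsd was the one called in the most comparisons of genotypes. It encodes cathepsin D, the main aspartic protease of the lysosome. In hepatocytes Ctsd was at 10.70, 10.78 and 10.67 in double knockouts, at 10.46, 10.19 and 10.22 in NEMO knockouts, at 10.31, 10.23 and 10.17 in KEAP1 knockouts, and at 10.12, 9.86 and 9.94 in controls. The double knockouts lay above every other hepatocyte array, and both single knockouts lay between them and the controls. In double knockout hepatocytes Ctsd rose by 0.74 ± 0.09 against control (1.67-fold, adjusted p = 0.000155), by 0.43 ± 0.09 against the NEMO knockout (adjusted p = 0.02) and, relative to KEAP1 knockouts, by 0.48 ± 0.09 (adjusted p = 0.013). Once the arrays in doubt were left out, these rises were 0.84 ± 0.10, 0.45 ± 0.09 and 0.50 ± 0.09, all called. The call against the NEMO knockout ended without double knockout 1 or 2 or without NEMO knockout 2 or 3, at adjusted p = 0.0538, 0.0828, 0.0932 and 0.0757. The call against the KEAP1 knockout ended without double knockout 2 or KEAP1 knockout 3, at adjusted p = 0.0789 and 0.0693.

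In liver Ctsd was at 10.72, 10.62 and 10.77 in double knockouts, at 10.53, 10.47 and 10.66 in NEMO knockouts, at 10.48, 10.23 and 10.35 in KEAP1 knockouts, and at 9.93, 9.82 and 10.55 in controls. The third control, the array with high Nqo1, reached the level of the mutants. With all arrays none of the 3 mutants was called against control, at adjusted p = 0.134 for double, 0.167 for NEMO and 0.696 for KEAP1 knockouts. After removal of the arrays in doubt, Ctsd rose by 0.79 ± 0.10 (adjusted p = 0.000862), 0.68 ± 0.10 (adjusted p = 0.00103) and 0.48 ± 0.10 (adjusted p = 0.0137) in the same order. Ctsd and Atp6v0e were the members called in KEAP1 knockout liver without those arrays, 2 of 38 where 5.26% of all genes were called.

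The sequences around the start sites of Ctsd and Atp6v0e are shown because these 2 members were the ones called against control in all 3 mutant livers once the arrays in doubt were left out. Both come from RefSeq (GRCm38.p6) and run 5′ to 3′ along the gene, from 250 bases before the start to 20 after it. Capitals mark CACGTG and the antioxidant response element core TGACNNNGC, the sequence class NRF2 binds, on either strand.
Ctsd, chr7:142387808-142388077, minus strand: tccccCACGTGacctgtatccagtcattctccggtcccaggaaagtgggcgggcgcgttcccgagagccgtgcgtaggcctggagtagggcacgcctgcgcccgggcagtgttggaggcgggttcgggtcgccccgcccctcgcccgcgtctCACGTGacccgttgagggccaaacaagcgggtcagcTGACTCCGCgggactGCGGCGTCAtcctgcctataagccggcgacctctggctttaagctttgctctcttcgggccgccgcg
Atp6v0e, chr17:26676146-26676415, plus strand: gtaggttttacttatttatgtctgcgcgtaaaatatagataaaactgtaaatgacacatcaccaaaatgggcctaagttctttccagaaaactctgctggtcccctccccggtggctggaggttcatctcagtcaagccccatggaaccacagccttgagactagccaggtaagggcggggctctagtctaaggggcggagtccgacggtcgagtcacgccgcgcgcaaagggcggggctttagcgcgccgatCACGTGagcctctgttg
The Ctsd sequence held CACGTG near the left end and again 98 bases before the start, and TGACNNNGC 62 and 47 bases before it, with no overlap between these matches. Atp6v0e held CACGTG 4 bases after its start. Searched from 250 bases before to 50 after the start, CACGTG occurred in 8.09% and TGACNNNGC in 14% of the 27025 genes of the promoter table. Other members with CACGTG were Atp6v0b, Atp6v0d1, Atp6v1a, Ctsa, Ctsf and Ctsl. TGACNNNGC was also found for Atp6v0a1, Atp6v1a, Atp6v1e2, Atp6v1g2, Ctsq and Ctsz. Atp6ap1 and Atp6ap2 held neither in this window. The table held 29 of the 38 genes, or 76.3%, which is too few for a share over the members. A match describes the letters and is not a binding site.

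Ctss, a cysteine protease known for cutting the invariant chain in antigen-presenting cells, had the largest called rise among members in hepatocytes with all arrays, while Atp6v0d2 had a larger one in double knockouts without the arrays in doubt. It was at 8.88, 8.93 and 8.27 in double knockout hepatocytes, at 8.58, 8.48 and 8.31 in NEMO knockouts, at 7.44, 7.71 and 7.08 in KEAP1 knockouts, and at 6.09, 7.63 and 6.21 in controls. Every double and NEMO knockout array lay above every KEAP1 knockout and control. Ctss rose by 2.05 ± 0.33 in double knockouts (4.14-fold, adjusted p = 0.00123) and by 1.81 ± 0.33 in NEMO knockouts (3.52-fold, adjusted p = 0.00415). Without the arrays in doubt the rises were 1.98 ± 0.33 and 1.54 ± 0.31, both called. KEAP1 knockout hepatocytes differed from control by 0.77 ± 0.33 (adjusted p = 0.314). Double against KEAP1 knockout hepatocytes differed by 1.28 ± 0.33 (adjusted p = 0.0581), and leaving out the arrays in doubt gave a rise of 1.49 ± 0.31 (adjusted p = 0.0176).

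In liver Ctss was at 9.20, 9.11 and 9.82 in double knockouts, at 9.67, 9.0 and 9.29 in NEMO knockouts, at 8.92, 8.20 and 8.83 in KEAP1 knockouts, and at 8.02, 7.79 and 9.17 in controls. The groups overlapped through liver control 3. With the arrays in doubt left out, Ctss rose by 1.25 ± 0.23 in double (adjusted p = 0.00661) and by 1.41 ± 0.21 in NEMO knockouts (adjusted p = 0.00149), while with all arrays the differences of 1.05 ± 0.33 and 0.99 ± 0.33 were not called.

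Macrophage markers moved along with Ctss. The mean of 15 markers, among them Adgre1, Cd68 and Csf1r, ranged over 7.37 to 7.95 in double knockout hepatocytes, 7.02 to 7.49 in NEMO knockouts, 6.06 to 6.64 in KEAP1 knockouts and 5.26 to 6.16 in controls. In liver the marker mean ranged over 7.72 to 7.88 in double knockouts, 7.68 to 7.97 in NEMO knockouts, 6.87 to 7.52 in KEAP1 knockouts and 6.61 to 7.74 in controls. Of the 15 markers, 14 rose in double knockout and 13 in NEMO knockout hepatocytes against control, where 6.73% and 4.61% of all genes rose. In liver limma called 0 of the 15 in double and 1 in NEMO knockouts against control, and 12 and 13 without the arrays in doubt. Of all genes 0.00531% and 1.33% were called there, and 9.2% and 12% without those arrays. In double and NEMO knockout hepatocytes stellate cell markers rose for 9 of 11 and 10 of 11, and endothelial markers for 7 of 8 in both. The same 6.73% and 4.61% of all genes stand beside these counts. In RNA of whole samples, a change in the number of cells of a type and a change in RNA per cell cannot be told apart. The part of these cells in the differences of Ctss, Ctsd, Atp6v0d2 and the other members was not tested.

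**Figure D3:**
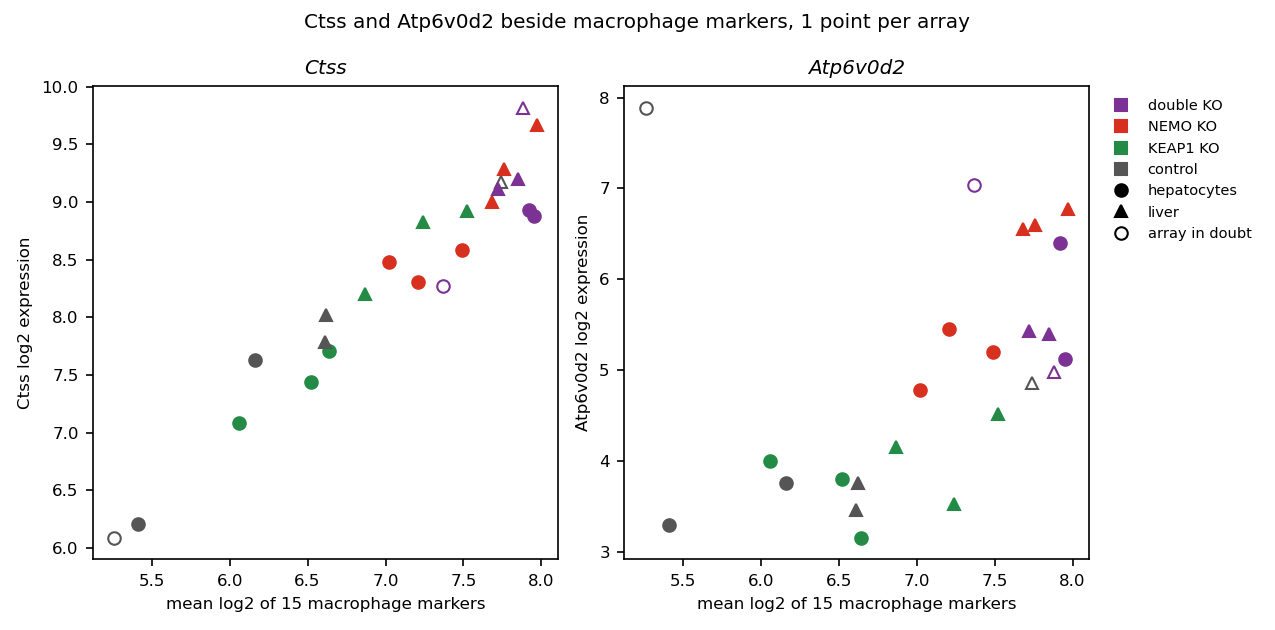
Log2 expression of Ctss and of Atp6v0d2 is plotted against the mean log2 of 15 macrophage markers, 1 point per array, with circles for hepatocytes, triangles for liver and open symbols for the 4 arrays in doubt. Ctss runs from 6.09 to 9.82 along with the markers. Atp6v0d2 does not follow them on hepatocyte control 1, which has the lowest marker mean, 5.26, and the highest Atp6v0d2, 7.89. Nor does it between NEMO and double knockout livers, with marker means of 7.8 and 7.82 and Atp6v0d2 means of 6.64 and 5.27.

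Other cathepsins differed in fewer places. Ctsc, the dipeptidyl peptidase that activates granule proteases, was at 9.74, 9.67 and 9.58 in double knockout hepatocytes, at 9.28, 9.04 and 9.25 in NEMO knockouts, at 8.97, 8.86 and 8.81 in KEAP1 knockouts, and at 9.65, 9.20 and 8.56 in controls. The controls ran from below to near the top of all other hepatocyte arrays, and no comparison was called with all arrays. Against the KEAP1 knockout the double knockout differed by 0.79 ± 0.19 (adjusted p = 0.0504), and against control by 0.53 ± 0.19 (adjusted p = 0.118). Once the arrays in doubt were left out, it rose by 0.83 ± 0.15 relative to KEAP1 knockouts (adjusted p = 0.0102) and by 0.83 ± 0.17 relative to controls (adjusted p = 0.0072). Ctsa, a carboxypeptidase that also protects lysosomal sialidase and beta-galactosidase, was at 9.44, 9.39 and 9.24 in NEMO knockout livers, against 8.76, 9.0 and 9.0 in controls. The groups did not overlap, and the difference of 0.44 ± 0.10 (adjusted p = 0.0572) became a called rise of 0.48 ± 0.11 without the arrays in doubt (adjusted p = 0.0142). Ctso, a little studied cysteine cathepsin, was at 8.12, 8.12 and 7.94 in double knockout livers, against 7.63, 7.60 and 8.13 in controls. The difference was 0.27 ± 0.14 (adjusted p = 0.295), and Ctso rose by 0.50 ± 0.12 without the arrays in doubt (adjusted p = 0.0222).

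Ctsg, a serine protease of neutrophil granules, was the only member that fell in a comparison with control. It was at 2.38, 2.36 and 2.58 in double knockout hepatocytes, at 2.71, 2.49 and 2.56 in NEMO knockouts, at 2.81, 2.77 and 2.68 in KEAP1 knockouts, and at 3.01, 3.51 and 3.09 in controls. The controls were above all mutants, but every mutant value lay within the background guide of 2.00 to 2.98. Ctsg fell by 0.76 on the log2 scale in double knockouts (SE 0.15, adjusted p = 0.0045) and by 0.61 in NEMO knockouts (SE 0.15, adjusted p = 0.0224). The call in NEMO knockouts ended without NEMO knockout 2 or 3 or control 2, at adjusted p = 0.0837, 0.0642 and 0.0694. The mean of 9 neutrophil markers ranged over 3.18 to 3.69 in double knockout, 3.08 to 3.34 in NEMO knockout and 3.12 to 3.25 in control hepatocytes, and its part in this result was not tested.

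Ctsl, the broad-acting cysteine cathepsin of many tissues, had the highest group mean in NEMO knockout hepatocytes at 10.53, 10.57 and 10.82, against 10.52, 10.55 and 10.30 in controls. The groups overlapped and it was not called. Ctsz, a carboxypeptidase, and Ctsf, a cysteine cathepsin, were also called in no comparison, and their group means spanned 0.30 and 0.33. Ctse, an aspartic protease known mainly from immune cells and stomach, was not called either, and its span of 0.61 became 0.36 without the arrays in doubt.

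The counts are read against all genes. In double knockout against control hepatocytes 5 of 38 members were called, 4 higher and 1 lower, where 9.72% of all genes were called, 6.73% higher and 2.99% lower, and the median change was 0.13 over members and -0.03 over all genes. In NEMO knockout against control hepatocytes 2 of 38 were called, where 6.65% of all genes were. For double against NEMO and against KEAP1 knockout hepatocytes the count was 1 of 38 each, Ctsd, where 3.32% and 2.75% of all genes were called. In KEAP1 knockout against control hepatocytes limma called 0 of 38 members, with 6 at an unadjusted p under 0.05, where 1.87% of all genes were called. After removal of the arrays in doubt, these 5 counts were 6, 5, 2, 4 and 0, where 9.23%, 5.58%, 3.8%, 3.78% and 1.82% of all genes were called. For the last of them 4 members had an unadjusted p under 0.05.

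In liver, limma called 0 of 38 members for double knockout against control, where 0.00531% of all genes were called, with 10 members whose unadjusted p was under 0.05. A fit that took replicate number as a block called 2 members there, Ctsd at adjusted p = 0.0338 and Ctss at adjusted p = 0.037. In KEAP1 knockout against control and in double against KEAP1 knockout 0 members and 0.0% of all genes were called, with 3 and 6 members at an unadjusted p under 0.05. Double against NEMO knockout and the interaction also gave 0 members, where 1.05% and 0.0106% of all genes were called, with 7 and 3 members at an unadjusted p under 0.05. Without the arrays in doubt 7 members were called in double knockouts and 8 in NEMO knockouts against control, all higher, where 9.2% and 12% of all genes were called, 6.37% and 8.48% higher. The median change was then 0.18 over members against -0.04 over all genes in double knockouts, and 0.16 against -0.05 in NEMO knockouts. Of the arrays in doubt, leaving out liver control 3 alone gave 8 called in double, 6 in NEMO and 2 in KEAP1 knockouts. The shares of all genes given here belong to other fits. The counts without liver control 3 and those of the blocked fit are therefore not read as a result about the members. Double against NEMO knockout then had 1 called without the 4 arrays, Atp6v0d2, where 3.46% of all genes were called, and double against KEAP1 knockout and the interaction had 0, where 0.0531% and 0.345% were, with 4 and 7 members at an unadjusted p under 0.05.

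Cultured hepatocytes were also set against liver of the same genotype. Ctsk, a collagen-degrading protease best known from osteoclasts, was at 3.69, 3.09 and 3.12 in NEMO knockout hepatocytes, against 4.66, 4.5 and 4.91 in NEMO knockout livers. The groups did not overlap, and Ctsk was lower in hepatocytes, with a difference of -1.39 ± 0.33 (adjusted p = 0.0198). Ctsw, a protease of natural killer and cytotoxic T cells, was at 2.91, 3.23 and 3.39 in NEMO knockout hepatocytes, against 3.76, 4.08 and 3.84 in NEMO knockout livers, a difference of -0.72 ± 0.17 (adjusted p = 0.0214). These were the 2 of 38 called in that comparison, where 3.77% of all genes were called. Their hepatocyte values of 2.91 to 3.69 lay near or within the background guide of 2.00 to 2.98. The Ctsk call ended without hepatocyte array 2 or 3 or liver array 1 or 3 of the NEMO knockouts, at adjusted p = 0.0713, 0.0736, 0.0656 and 0.0973. The Ctsw call ended without hepatocyte array 1 or 2 or liver array 2 or 3, at adjusted p = 0.0944, 0.0505, 0.0773 and 0.0688. With the arrays in doubt left out, Atp6v0d2 joined them with -1.50 ± 0.29 (adjusted p = 0.00348), and 7.86% of all genes were called.

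In the same comparison 10 of 11 stellate cell markers and 2 of 11 markers of T and natural killer cells were lower in hepatocytes. Of all genes 2.68% were called lower there. Stellate markers averaged 6.22 to 6.51 in NEMO knockout hepatocytes and 7.71 to 8.22 in NEMO knockout livers, and T and natural killer markers averaged 3.14 to 3.41 in NEMO knockout hepatocytes and 3.36 to 3.86 in NEMO knockout livers. The part of these cells in the differences of Ctsk and Ctsw was not tested.

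Among controls, Ctss was lower in hepatocytes than in liver, with a difference of -1.68 ± 0.36 (adjusted p = 0.00552), and so was Atp6ap1, at -0.30 ± 0.09 (adjusted p = 0.0478), 2 of 38 where 5.13% of all genes were called. Neither was called without the arrays in doubt, at -0.98 ± 0.32 for Ctss (adjusted p = 0.124) and -0.33 ± 0.10 for Atp6ap1 (adjusted p = 0.0988), where 3.06% of all genes were called and 5 members had an unadjusted p under 0.05. Leaving out hepatocyte control 1 or 3 or any 1 liver control also ended the call of Atp6ap1, at adjusted p between 0.0661 and 0.179. Macrophage markers were lower in control hepatocytes for 12 of 15, where 3.84% of all genes were called lower, and their part was not tested. In KEAP1 knockouts 0 of 38 members were called by limma, with 4 at an unadjusted p under 0.05, where 2.49% of all genes were called. Once the arrays in doubt were left out, Ctss was called there, at 7.44, 7.71 and 7.08 in KEAP1 knockout hepatocytes and 8.92, 8.20 and 8.83 in KEAP1 knockout livers, a difference of -1.24 ± 0.26 (adjusted p = 0.00684), where 6.47% of all genes were called. No member was called for the difference of the NEMO effect between liver and hepatocytes, with 3 at an unadjusted p under 0.05, where 0.0691% of all genes were called. Leaving out the arrays in doubt gave 0 members, 6 at an unadjusted p under 0.05, and 0.0638% of all genes. The difference between tissues in what KEAP1 loss adds to NEMO loss gave 0 members and 0.0% of all genes with all arrays, with 2 members at an unadjusted p under 0.05, and 0 members, 3 at an unadjusted p under 0.05, and 0.0159% of all genes without those in doubt.

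**Figure D4:**
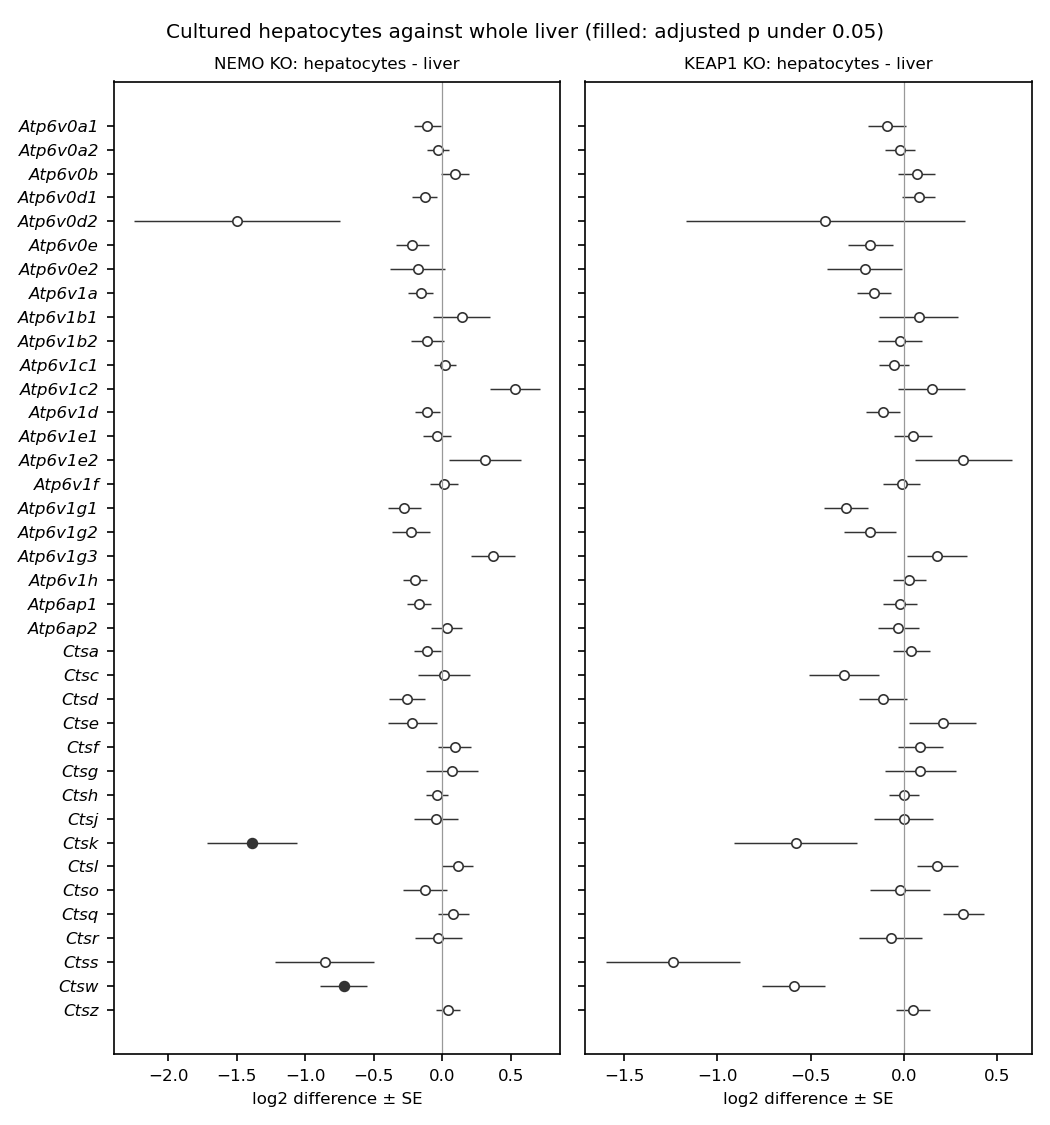
The log2 difference ± SE of hepatocytes minus liver is drawn for the 38 genes in NEMO knockouts (left) and KEAP1 knockouts (right), groups without an array in doubt. Filled points have an adjusted p under 0.05. Most genes lie near 0, and Ctsk at -1.39 and Ctsw at -0.72 are filled on the left.

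Other genes of the lysosome were taken from 6 lists. Of 29 other hydrolases and their cofactors 10 rose in double knockout, 3 in NEMO knockout and 4 in KEAP1 knockout hepatocytes against control, and none fell, where 6.73%, 4.61% and 1.45% of all genes rose. In double knockouts Ifi30, a thiol reductase of antigen processing, rose by 1.91 ± 0.11 (adjusted p = 8.04e-07) and Lgmn, the asparagine endopeptidase that processes cathepsins, by 1.91 ± 0.21 (adjusted p = 9.51e-05). Hexa, a subunit of beta-hexosaminidase, rose by 0.72 ± 0.08 (adjusted p = 7.41e-05), and in KEAP1 knockouts by 0.46 ± 0.08 (adjusted p = 0.00816). The median change of the list in double knockout hepatocytes was 0.27, against -0.03 over all genes. In liver limma called 0 of the 29 in any mutant against control with all arrays, with 10 in double, 15 in NEMO and 5 in KEAP1 knockouts at an unadjusted p under 0.05. After removal of the arrays in doubt, 8 rose in double, 15 in NEMO and 7 in KEAP1 knockout livers, where 6.37%, 8.48% and 3.71% of all genes rose. Lgmn was at 1.26 ± 0.15, 1.30 ± 0.14 and 0.64 ± 0.14 in the same order. Counts of genes that rose in the lists below are read against the same shares of all genes. Counts of genes that fell are read against 2.99% of all genes in double, 2.05% in NEMO and 0.425% in KEAP1 knockout hepatocytes.

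Membrane and ion transport genes of the lysosome, 24 in number, gave 5 higher in double and 4 higher with 1 lower in NEMO knockout hepatocytes. The strongest were Cd68, which is also 1 of the 15 macrophage markers, at 2.75 ± 0.25 and 2.30 ± 0.25, and Laptm5, a lysosomal protein of blood cells, at 2.63 ± 0.31 and 2.17 ± 0.31. Npc1, the lysosomal cholesterol exporter, rose by 0.53 ± 0.10 in NEMO knockout liver (adjusted p = 0.0293), and fell by 0.51 on the log2 scale in double against NEMO knockout liver (adjusted p = 0.038).

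Of 13 cathepsin inhibitors, 4 rose in double, 1 in NEMO and 2 in KEAP1 knockout hepatocytes. Serpinb6a, an inhibitor of cathepsin G, rose by 1.78 ± 0.21 in double (adjusted p = 0.000142), 1.28 ± 0.21 in NEMO (adjusted p = 0.00236) and 0.94 ± 0.21 in KEAP1 knockouts (adjusted p = 0.0406). Serpinb1a, an inhibitor of neutrophil proteases, rose by 3.08 ± 0.55 in KEAP1 knockout hepatocytes against control (adjusted p = 0.0125) and relative to NEMO knockouts by 3.05 ± 0.55 in double knockout hepatocytes (adjusted p = 0.00924). Cstb, cystatin B, rose by 0.58 ± 0.11 in double knockout hepatocytes (adjusted p = 0.00311).

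Among 20 genes of MiT factors and lysosomal nutrient sensing, 2 rose and 1 fell in double knockout hepatocytes and 1 rose in KEAP1 knockouts. Rragd, a GTPase that carries lysosomal amino acid signals to mTORC1, rose by 0.80 ± 0.14 in double (adjusted p = 0.00281) and by 0.95 ± 0.14 in KEAP1 knockout hepatocytes (adjusted p = 0.00393). Tfec, a relative of TFEB known from macrophages, rose by 1.36 ± 0.27 in double knockout hepatocytes (adjusted p = 0.00583), and Flcn, folliculin, fell by 0.67 on the log2 scale (adjusted p = 0.00991). Of 13 genes of pump assembly and regulation 1 rose and 2 fell in double and 2 fell in NEMO knockout hepatocytes. Tbc1d24 fell by 0.73 and 0.94 on the log2 scale and Rilp by 0.48 and 0.39 in double and NEMO knockout hepatocytes, all 4 called, and Ncoa7 rose by 0.62 ± 0.16 in double knockouts (adjusted p = 0.0261). Of 11 sorting receptors 0 were called in any mutant against control by limma with all arrays, and 0 to 4 had an unadjusted p under 0.05. Without the arrays in doubt 2 rose in double, 4 in NEMO and 1 in KEAP1 knockout liver, with Vps35 of the retromer at 0.40 ± 0.09, 0.47 ± 0.08 and 0.34 ± 0.08. The part of macrophages in these lists was not tested.

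**Figure D5:**
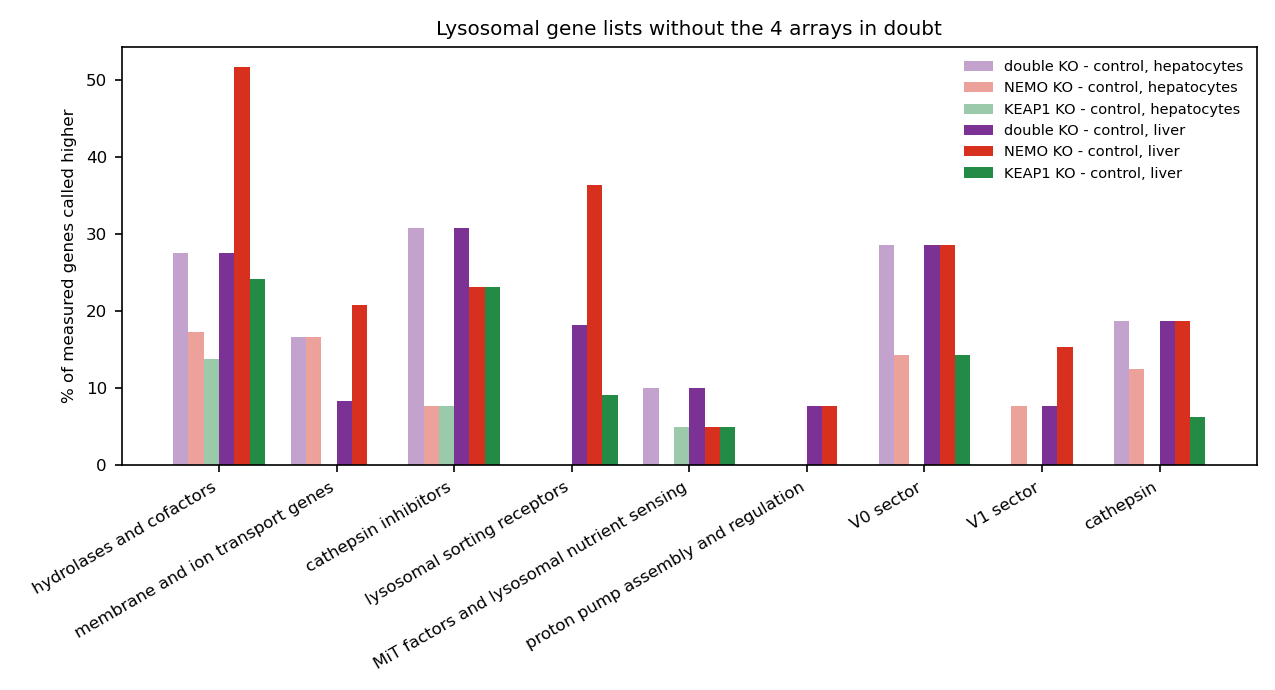
Bars give the percentage of measured genes called higher in each list without the 4 arrays in doubt, for double, NEMO and KEAP1 knockout against control, hepatocytes in pale and liver in full colours. The hydrolases have the highest bar, in NEMO knockout liver, with 15 of 29 genes.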

How the data were processed

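Members, gene lists and comparisons were chosen with earlier results of these data known. The deposited values are on the log2 scale, 1 for each probe set of an array. RMA is the tool named, per the submitters' processing notes. Its version and options, and any scan date, are not given here, so no batch was tested. The lowest value was 0.51 and the highest 13.62, and medians of single arrays lay at 4.03 to 4.23. Of 35556 probe sets, 21218 had 1 gene symbol in the platform annotation, 1881 had several and 12457 were not listed. The first kind gave 18820 genes, with the brightest mean probe set for the 1386 genes with several. Among members these were Atp6v0a2, Atp6v1f and Atp6v1g1, none of them called. Symbols were checked against RefSeq (GRCm38.p6), which changed 0 and left 33 unmatched.

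Differences were tested two-sided in R 4.3.3 by limma 3.58.1, using lmFit and eBayes with a trend on intensity, after a test on simulated data. Comparisons within a tissue used its 12 arrays, and comparisons between tissues used all 24. Changes are ± the standard error of the fit. Precision is limited by having 3 arrays in each group. Without the arrays in doubt, double knockout against control rested on 2 arrays per group in either tissue. Alternatives were other scalings, filters and fits, leaving out each array, and the 4 arrays in doubt left out together, which was chosen after seeing the data. Same-numbered liver double knockouts and liver controls had residuals that correlated at r = 0.115, 0.136 and 0.23, all above 0.1. The number is not stated to mark a shared animal or day, and the blocked fit stands beside that comparison. Every member could be named, with values per array where called, and at most 4 called genes per list and comparison.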

Additional observations from a re-analysis of the deposited data

How the results depend on the processing

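Numbers below are members called of 38. The share of all genes called also moved with the setting. For NEMO knockout against control liver it was 1.33% with all arrays and 12% without those in doubt. For double knockout against control liver it was 0.00531% and 9.2%. Shares under the other settings are not given here, so a changed count is not read as a result about the members. Without the 4 arrays in doubt 8 were called for NEMO knockout, 2 for KEAP1 knockout and 7 for double knockout against control liver, and 1 for double against NEMO knockout liver, in place of 1, 0, 0 and 0. In hepatocytes they gave 5 for NEMO knockout against control, 2 for double against NEMO and 4 for double against KEAP1 knockout, in place of 2, 1 and 1. For hepatocytes against liver they gave 0 in controls and 1 in KEAP1 knockouts, in place of 2 and 0. With the replicate number as a block, 4 were called for NEMO knockout and 2 for double knockout against control liver, 3 for double against KEAP1 knockout hepatocytes and 1 for control hepatocytes against control liver. The block moved no other of these counts by over 1.5 times. With only the groups compared in the fit, counts were 1 for double against NEMO knockout liver, 1 for NEMO knockout against control hepatocytes, 2 for double against NEMO and 4 for double against KEAP1 knockout hepatocytes. Between tissues that fit gave 0 in controls, 4 in NEMO and 1 in KEAP1 knockouts. With arrays centred on their medians counts were 1 for double against NEMO knockout liver, 6 for NEMO knockout against control hepatocytes, 0 for double against KEAP1 knockout hepatocytes, and between tissues 6 in controls and 1 in KEAP1 knockouts. That centring moved the median change of all genes by between -0.2 and 0.21. Over genes above the array median counts were 2 for NEMO knockout against control liver, 1 for KEAP1 knockout against control hepatocytes, 3 for double against NEMO and 2 for double against KEAP1 knockout hepatocytes, and 0 between tissues in NEMO knockouts. Without the intensity trend they were 0 for double against NEMO knockout hepatocytes and 1 between tissues in controls. With quantile normalization they were 2 for double against KEAP1 knockout hepatocytes and 1 between tissues in controls. The causes were not tested.

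Leaving out 1 array at a time gave 1 to 6 for NEMO knockout, 0 to 2 for KEAP1 knockout and 0 to 8 for double knockout against control liver. It gave 1 to 4, 0 to 2 and 4 to 7 for the same comparisons in hepatocytes, 0 to 2 for double against NEMO and 0 to 2 for double against KEAP1 knockout hepatocytes. Between tissues it gave 1 to 2 in controls, 0 to 1 in NEMO and 0 to 1 in KEAP1 knockouts, and 0 for double against NEMO and against KEAP1 knockout liver, the interaction and the difference of the NEMO effect between tissues. Counts of members called without 1 array were not listed for the comparison added after the data were seen. The difference of Atp6v0d2 in NEMO knockout against control hepatocytes reversed to -0.01 with centred arrays, to -0.45 without hepatocyte control 2 and to -0.68 without hepatocyte control 3, while it was 1.62 without hepatocyte control 1. Of the values of single genes under alternatives, 491 kept direction and side of the threshold, 69 passed it newly, 41 lost it and 3 reversed.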
